A study of Homo sapiens with 11 samples.

Results

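The glucocorticoid receptor (GR) and the modifiers SUMO-2 and SUMO-3 were compared within a single HEK293 line, the 3KR line, whose transgene encodes a receptor that is defective in SUMOylation. All GR and SUMO-2/3 libraries of that line were taken, which are 4 of the 11 samples of the series: 2 libraries with a GR antibody and 2 with an antibody to SUMO-2/3. HEK293 is a human embryonic kidney cell line, and the isogenic lines of the study differ in the GR transgene they stably express. Cells stood in steroid-depleted medium for 72 h and then received 100 nM dexamethasone, a synthetic glucocorticoid, for 1 h. Chromatin immunoprecipitation with sequencing (ChIP-seq) followed, and every library used here comes from dexamethasone-treated cells. The GR antibody was also used on a control line with no GR transgene, in 1 library, which serves as the comparison without a transgene. Its list holds the peaks of that library and not stretches common to duplicates. The 3KR line is a single cell population, no library without hormone and no wild-type line enters, and the labels do not say whether the duplicates came from separate cultures. The GR antibody is not stated to separate the transgenic receptor from GR of the host cell, so which of them lay at a site cannot be told apart.

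GR is a nuclear receptor that enters the nucleus when it binds a glucocorticoid, attaches to DNA and recruits coregulators that raise or lower transcription. SUMO proteins are joined to lysines of many chromatin proteins, transcription factors and their coregulators among them, and are often linked to repression. GR is itself a SUMO target, so a SUMO-2/3 signal at a GR site can in principle come from the receptor or from its neighbours. With a SUMOylation-defective transgene, that target is missing on the transgenic receptor.

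A site here is the stretch of hg19 that a peak of library 1 and a peak of library 2 have in common, and it has 1 position for both libraries of an antibody. Each library adds the tag count (sequenced fragment ends within the peak), fold enrichment over the caller's background, length and summit of its own peak. The GR list held 18856 sites over 21.43 Mb, and the SUMO-2/3 list 7784 sites over 10.20 Mb. Median tags per GR site were 195 in library 1 and 172.5 in library 2, and median fold enrichments were 19.90 and 13.14. Median tags per SUMO-2/3 site were 106 and 210, with folds of 10.81 and 15.86. The SUMO-2/3 libraries thus differed more in tags per site than the GR libraries: at the same site the second library had a median of 1.91 times the tags of the first, against 0.889 times for GR. Ranks of tags agreed to a similar degree within both duplicates, with a Spearman correlation over sites of 0.842 for GR and 0.841 for SUMO-2/3. Neighbouring sites that lie in 1 long peak of a library carry the same tag count, which was the case for 3.87% of GR and 3.26% of SUMO-2/3 sites.

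GR and SUMO-2/3 sites that share at least 1 bp are called co-bound below, a statement about positions in populations of cells and not about single molecules. SUMO-2/3 lay at 2940 GR sites (15.59%, exact 95% interval 15.08 to 16.12), and GR at 2925 SUMO-2/3 sites (37.58%, 36.50 to 38.66). The remaining 15916 GR and 4859 SUMO-2/3 sites are called unmatched. Intervals cover counting error over sites only, since a list common to both libraries gives the count no replicate error. The sites met in 2979 pairs, of which 2810 (94.33%) were one-to-one. In the one-to-one pairs the shared stretch had a median of 1004 bp, or 92.3% of the GR site and 96.6% of the SUMO-2/3 site. The SUMO-2/3 site lay wholly inside the GR site in 979 pairs (34.84%), and the reverse held in 569 (20.25%). In the other 1262 pairs the ends were staggered, and an overlap under 100 bp occurred in 6 pairs.

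A few regions departed from the one-to-one pattern. A single SUMO-2/3 site covered more than 1 GR site in 49 cases, and a single GR site more than 1 SUMO-2/3 site in 36. The SUMO-2/3 site at chr6:35696683-35702082, 5400 bp wide, met 4 GR sites. Neighbours among these share long GR peaks, and that at chr6:35697084-35697089 is only 6 bp wide. The SUMO-2/3 site had 560 and 3098 tags in libraries 1 and 2. Its counts differ more between libraries than those of the median SUMO-2/3 site, and in library 2 a single long SUMO-2/3 peak also covered the neighbouring site. GR sites at chr1:229407256-229411271, chr11:120911261-120913826 and chr6:108908321-108914908 each met 3 SUMO-2/3 sites. These wide regions are named by position only, as no hg19 annotation was used here.

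The first sites by mean fold rank show what strong co-binding looked like. At chr19:18808334-18810576 GR had 1510 tags in each library with folds of 70.25 and 49.82, and SUMO-2/3 had 895 and 1474 tags with folds of 49.28 and 54.04. At chr5:6518986-6520463 GR had 1055 tags in each library and SUMO-2/3 438 and 733. At chr5:1416235-1417598 the GR counts were 924 and 877 and the SUMO-2/3 counts 408 and 589. The site at chr16:85628123-85629299 had fewer GR tags, 554 and 565, with 227 and 433 SUMO-2/3 tags and folds of 61.88 and 58.15 for GR and 40.85 and 58.09 for SUMO-2/3. Of the 10 best co-bound sites, 2 had a GR site in the control line. Over all co-bound GR sites the share was 11.8%, and in the highest quintile of GR fold 16.4%.

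From the highest to the lowest fold enrichment, the co-bound share fell among GR sites and rose among SUMO-2/3 sites. Among GR sites it was 47.06% (45.45 to 48.67) in the highest quintile of fold enrichment, 14.43% in the next, and 3.08% in the lowest. SUMO-2/3 sites showed the opposite order, from 28.00% (25.78 to 30.31) in the highest quintile over 36.48%, 38.50% and 41.81% to 43.10% (40.62 to 45.60) in the lowest. The median fold of co-bound GR sites was 34.06 and 24.51 in libraries 1 and 2, against 18.58 and 12.28 at unmatched GR sites. The median fold of co-bound SUMO-2/3 sites was 10.47 and 15.10, against 11.07 and 16.43 at unmatched ones. The ratio was thus above 1 in both GR libraries (1.83 and 1.996) and slightly below 1 in both SUMO-2/3 libraries (0.946 and 0.919). By tags the SUMO-2/3 ratios were above 1, at 1.088 and 1.131, and by tags per kb 1.027 and 1.028. GR ratios by tags were 2.169 and 2.155, so the opposite direction held for fold and not for tags. These are 2 libraries an antibody, and no test of the difference was made.

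**Figure D1:**
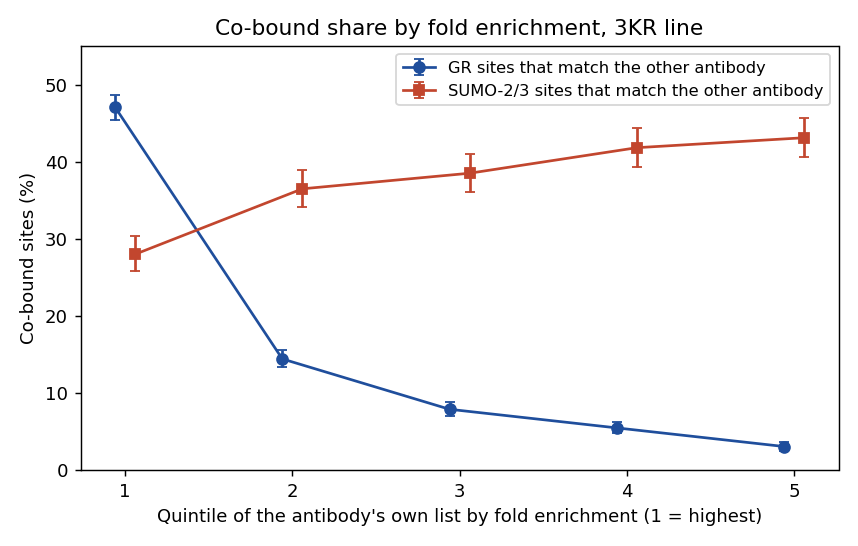
Share of sites (y axis, percent) that overlap a site of the other antibody, by quintile of fold enrichment within the antibody's own list (x axis, 1 is the highest quintile); bars are exact 95% intervals over sites. The GR line falls from 47.06% to 3.08%, while the SUMO-2/3 line rises from 28.00% to 43.10%.

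The best-ranked unmatched sites illustrate that contrast. The first GR site without SUMO-2/3 stood at rank 49 of its list, at chr2:138934457-138936040, with 592 and 491 tags, folds of 67.46 and 51.06, and 103.7 kb to the nearest SUMO-2/3 site. The next, at chr2:218114086-218115469, had 575 and 539 tags and stood at rank 85, with 405.6 kb to SUMO-2/3. Among the 1000 best GR sites, 234 had no SUMO-2/3, against 84.41% of all GR sites. Conversely, the top-ranked site of the whole SUMO-2/3 list had no GR. It lay at chr11:75945945-75948167, with 699 and 966 tags, folds of 70.37 and 69.99, and 7.264 kb to the nearest GR site. The SUMO-2/3 site at chr19:4723510-4726049, with 615 and 992 tags, was 113.2 kb from GR. Among the 1000 best SUMO-2/3 sites, 231 had GR, against 37.58% of all SUMO-2/3 sites. The 1000 best are a larger part of the 7784 SUMO-2/3 sites than of the 18856 GR sites, so the counts are not like for like. Of the 10 best unmatched sites, the control line had GR at 5 of the GR sites and at 0 of the SUMO-2/3 sites. Over all unmatched sites the shares were 3.50% for GR, or 11.0% in its highest fold quintile, and 0.0412% for SUMO-2/3. A count of 0 is thus the usual value for SUMO-2/3 sites without GR.

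The summits of GR and SUMO-2/3 lay close together. A summit can be placed on the genome only where the peak's own length equals the width of the site, which held for 10482 GR sites (55.6%) and 4383 SUMO-2/3 sites (56.3%), always in 1 library and never in both. Over the 912 co-bound pairs with both summits placed, the median distance was 24 bp, with quartiles of 11 and 52 bp. The distance was at most 50 bp in 74.1% of pairs and over 500 bp in 52 pairs (5.70%). Neither antibody was offset to one side, as the median signed distance was 2.5 bp. By library pair the median was 35 bp for GR 1 with SUMO-2/3 1 (208 pairs), 24 bp for GR 1 with SUMO-2/3 2 (149 pairs), 23 bp for GR 2 with SUMO-2/3 1 (179 pairs) and 22 bp for GR 2 with SUMO-2/3 2 (376 pairs).

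The duplicates of 1 antibody give a rough yardstick for the error of a summit. No site was placeable in both libraries, so a duplicate distance can be off by up to 20 bp. Where both libraries' lengths were within 20 bp of the site width, the summits of the GR duplicates lay a median of 15 bp apart (455 sites), and those of the SUMO-2/3 duplicates 17 bp apart (47 sites). At co-bound sites alone these medians were 15 bp (60 sites) and 25 bp (21 sites). Of the cross-antibody medians, 3 fall between the duplicate medians at co-bound sites, and only the pair of first libraries exceeds both. With the same 20 bp tolerance between antibodies, GR 1 had medians of 34.5 and 24 bp to SUMO-2/3 libraries 1 and 2. GR 2 had 23 and 22 bp. The duplicate medians rest on few co-bound sites. The pair of first libraries also supplied 32 of the 52 distances over 500 bp. Distance grew with width: no pair under 1 kb exceeded 500 bp, against 39 of 184 pairs with a site of 2 kb or more. With wider sites left out, the pair of first libraries still had a median of 34 bp (113 pairs), but only 5 distances over 500 bp. The control line's GR summits lay a median of 16 and 19.5 bp from those of GR libraries 1 and 2, and 33 and 20 bp from those of SUMO-2/3 libraries 1 and 2.

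**Figure D2:**
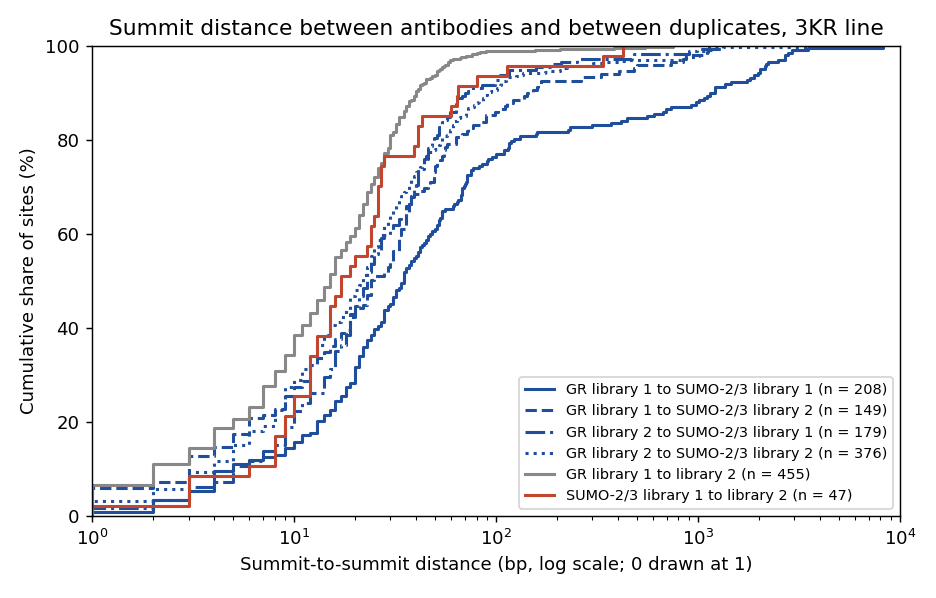
Cumulative share of sites (y axis, percent) by summit-to-summit distance (x axis, bp, log scale) for the 4 GR by SUMO-2/3 library pairs (blue) and for the duplicates of each antibody (grey GR, red SUMO-2/3). Medians are 22 to 35 bp between antibodies, 15 bp between GR duplicates and 17 bp between SUMO-2/3 duplicates, and the pair of first libraries has the long tail. Duplicate distances are known only to within 20 bp.

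Within the site, summits of both antibodies sat near the middle. The median relative position was between 0.497 and 0.505 of the site's width in every library and class. At co-bound GR sites the summit was a median of 89.0 and 57.25 bp from the centre in libraries 1 and 2, against 56.5 and 34.5 bp at unmatched GR sites. For SUMO-2/3 the values were 99.75 and 47.0 bp at co-bound sites and 96.5 and 33.0 bp at unmatched sites. Co-bound sites were also the wider ones.

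Where GR had more tags, SUMO-2/3 had more tags. The one-to-one sites were ordered by GR tags and divided into 5 equal parts of 562 sites. From the lowest to the highest of these, median GR tags went from 174 to 706 in library 1 and from 166.5 to 651.5 in library 2. Median SUMO-2/3 tags went from 78.0 to 200.5 in library 1 and from 149.5 to 444.5 in library 2. The ratio of highest to lowest was 2.57 and 2.97 for SUMO-2/3. With the sites ordered by SUMO-2/3 tags instead, median GR tags went from 258 to 602 in library 1 and from 215 to 604 in library 2, a ratio of 2.33 and 2.81. Each antibody thus followed the order of the other. Peak length rose with the tags, and in the order of GR tags the SUMO-2/3 peaks of the highest part were 1.71 and 2.17 times as long as those of the lowest. Per kb of peak, SUMO-2/3 tags were 1.52 and 1.38 times as high, and in the order of SUMO-2/3 tags GR tags per kb were 1.13 and 1.15 times as high.

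As a correlation over the 2810 sites, GR and SUMO-2/3 tags had Spearman coefficients of 0.561, 0.525, 0.655 and 0.680 for the pairs GR 1 with SUMO-2/3 1, GR 1 with SUMO-2/3 2, GR 2 with SUMO-2/3 1 and GR 2 with SUMO-2/3 2. The duplicates gave 0.853 for GR and 0.861 for SUMO-2/3. The correlation between antibodies was therefore below that between duplicates in all 4 pairs, and it was higher with GR library 2. With tags per kb of own peak the coefficients between antibodies were 0.373 to 0.439, and with fold enrichment 0.254 to 0.397. Among the 1051 sites where both widths were between 800 and 1200 bp, tags gave 0.401 to 0.491, and the duplicates 0.810 and 0.685. Sites share their libraries and width, so these coefficients describe the lists and carry no p-value.

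Individual co-bound sites that leaned to GR or to SUMO-2/3 were then sought, meaning sites whose ratio of SUMO-2/3 to GR tags departed from the typical ratio by more than the spread between duplicates. By edgeR's quasi-likelihood test, 303 of 2810 sites (10.8%) passed a Benjamini-Hochberg adjusted p of 0.05. Of these, 68 (2.42% of the sites tested) leaned to GR and 235 (8.36%) to SUMO-2/3. From the lowest to the highest of the 5 parts by GR tags, GR-leaning sites numbered 0, 1, 16, 30 and 21. SUMO-2/3-leaning sites numbered 130, 55, 22, 18 and 10. Every listed peak has over 50 tags. Median tags at co-bound sites were 379.5 and 334 for GR in libraries 1 and 2, and 111 and 224 for SUMO-2/3. A SUMO-2/3 count could thus fall less far below its median, and the part of this limit in the direction of the calls was not tested. The shares also depend on how tags are counted. With the length of each peak as an offset, 514 sites passed, 183 to GR and 331 to SUMO-2/3, so that GR-leaning sites made up 35.6% of the calls in place of 22.4%. The count was 754 by DESeq2 and 136 among sites with at least 100 tags in every library. Without GR library 2 it was 573 (198 to GR and 375 to SUMO-2/3), and the GR-leaning count was 104 without SUMO-2/3 library 1 and 42 without SUMO-2/3 library 2.

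At the GR-leaning sites with the smallest adjusted p, the SUMO-2/3 site was narrower than the GR site and lay inside it. At chr9:4301626-4304719 GR had 819 and 738 tags over a 3094 bp site, and SUMO-2/3 had 75 and 157 tags over 836 bp. The difference, SUMO-2/3 minus GR relative to the typical site, was -1.69 on the log2 scale (edgeR adjusted p = 0.00691), and 0.14 with the length offset. At chr4:139555835-139557917 the counts were 702 and 486 for GR and 62 and 124 for SUMO-2/3, a log2 difference of -1.60 (edgeR adjusted p = 0.00892), which was -0.32 with the length offset. At chr4:23879034-23881334, where the control line also had GR, they were 652 and 558 against 85 and 165, a difference of -1.20 (edgeR adjusted p = 0.0129), and -0.11 with the offset. At chr9:19666255-19667407 they were 572 and 421 against 53 and 124, a difference of -1.44 (edgeR adjusted p = 0.0130), and here -0.96 was left with the offset, at an adjusted p of 0.00326. Of the 68 GR-leaning sites, 27 had the same call with the offset.

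The SUMO-2/3-leaning sites had median folds of 15.44 and 12.50 for GR, below the medians of the GR list, and of 11.78 and 17.24 for SUMO-2/3, slightly above those of the SUMO-2/3 list. At chr3:169490642-169491491 GR had 93 and 94 tags, and the SUMO-2/3 site, whose position was chr3:169489497-169490747, had 221 and 422, a log2 difference of 2.86 (edgeR adjusted p = 0.00418). At chr15:57024886-57025668 GR had 64 and 75 tags and SUMO-2/3 238 and 415, a difference of 3.32 (edgeR adjusted p = 0.00418). At chr14:32673181-32674227 GR had 187 and 138 tags and SUMO-2/3 420 and 873, a difference of 3.06 (edgeR adjusted p = 0.00418). At chr4:124429787-124430549 GR had 94 and 74 tags and SUMO-2/3 164 and 336, a difference of 2.64 (edgeR adjusted p = 0.00418). With the length offset the differences were 1.84, 1.63, 1.12 and 2.21, and 170 of the 235 SUMO-2/3-leaning sites had the same call. The SUMO-2/3 site on chromosome 3 touched GR by its edge only, and with a required reciprocal overlap of 50% the calls fell to 31 for GR and 147 for SUMO-2/3.

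**Figure D3:**
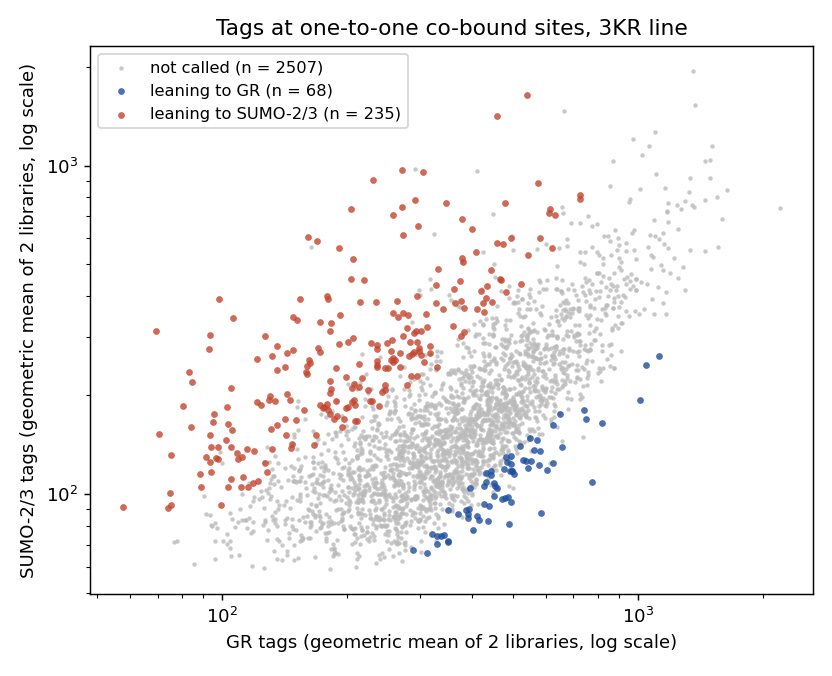
GR tags (x axis) against SUMO-2/3 tags (y axis) at the 2810 one-to-one co-bound sites, each the geometric mean of 2 libraries on log scales; blue points lean to GR (68), red points to SUMO-2/3 (235) and grey points were not called. Red points lie along the upper edge of the cloud and blue points along the lower edge, as the call is made on the ratio of the axes.

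The leaning classes also differed in summit distance. The summits of GR and SUMO-2/3 were a median of 87 bp apart at SUMO-2/3-leaning sites (71 placed pairs, 16 of them over 500 bp), 23 bp at sites that leaned to neither (789 pairs, 16 over 500 bp) and 28 bp at GR-leaning sites (11 pairs, 0 over 500 bp). Length enters the tag test, since tags are counted over the whole peak, and SUMO-2/3 peaks at SUMO-2/3-leaning sites had median lengths of 1805 and 2089 bp in libraries 1 and 2, with 1172 and 1227 bp for the GR peaks there. Where the wider site was under 2 kb, the medians were still 70 bp (40 pairs) at SUMO-2/3-leaning sites and 22 bp (660 pairs) at the sites of neither class. The parts of width and of sites that touch by an edge in the remaining difference were not tested. With a required reciprocal overlap of 50%, SUMO-2/3-leaning calls fell from 235 to 147, and summit distances by class were not taken under that rule.

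Peaks of the 2 antibodies were of similar length where they coincided. At co-bound sites the median own-peak length was 1340 and 1297 bp in the GR libraries and 1237 and 1300 bp in the SUMO-2/3 libraries, and the groups overlapped (ratio 0.962, exact two-sided permutation p = 0.667 over the 4 libraries). The SUMO-2/3 site was the wider one in 1168 of 2810 one-to-one pairs (41.57%). At unmatched sites the GR medians were 1036 and 989 bp and the SUMO-2/3 medians 1144 and 1130 bp, so both SUMO-2/3 libraries lay above both GR libraries (ratio 1.12, exact permutation p = 0.333, the smallest that 2 against 2 libraries allow). Over all sites the ratio was 1.13, also at an exact permutation p of 0.333.

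Co-bound GR peaks were longer than unmatched GR peaks in both libraries, 1.29 and 1.31 times by the median. For SUMO-2/3 the ratios were smaller, 1.08 and 1.15. The SUMO-2/3 direction rests on the match rule: with matches defined by centres within 200 bp, a rule tried for widths after seeing the data, the mean ratio was 0.978 in place of 1.12, while that of GR stayed above 1 at 1.17. Very long peaks were unevenly spread. Peaks of 3 kb or more made up 6.91% and 8.74% of co-bound GR sites in libraries 1 and 2, and 2.67% and 3.73% of unmatched ones. Among SUMO-2/3 sites they made up 6.67% and 12.1% of co-bound and 5.52% and 11.1% of unmatched sites.

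**Figure D4:**
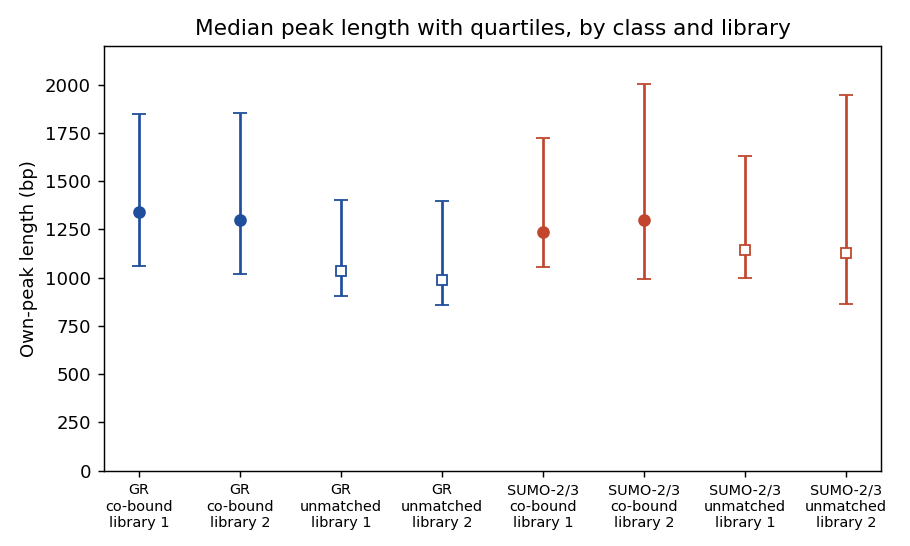
Median own-peak length (y axis, bp) with quartiles over sites, for co-bound (filled circles) and unmatched (open squares) sites in each library of GR (blue) and SUMO-2/3 (red). Co-bound GR medians of 1340 and 1297 bp lie above unmatched ones of 1036 and 989 bp, and the SUMO-2/3 medians lie between 1130 and 1300 bp.

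Unmatched sites were seldom just outside a match. Of the 15916 GR sites without SUMO-2/3, 191 had a SUMO-2/3 site within 500 bp, 12.9% within 10 kb and 54.1% within 100 kb, with a median of 85.0 kb. Of the 4859 SUMO-2/3 sites without GR, 66 had GR within 500 bp, 18.4% within 10 kb and 74.3% within 100 kb, with a median of 43.0 kb. The GR list is the longer one, and its length and the shorter distances to GR cannot be told apart here. Among sites above the median fold of their list the shares within 10 kb were 5.46% and 8.11%, with fewer sites on each side. The 122 unmatched SUMO-2/3 sites within 1 kb of GR had longer peaks, 1455 and 1778 bp by the median in libraries 1 and 2, than the 2717 at 10 to 100 kb, which had 1146 and 1116 bp.

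Co-bound sites stood in denser surroundings than unmatched ones. The median distance from a co-bound GR site to the next nearest GR site was 9.995 kb, and 1470 of 2940 had one within 10 kb. From an unmatched GR site it was 20.5 kb, and 35.5% had one within 10 kb. For SUMO-2/3 the medians were 39.0 kb from co-bound and 56.9 kb from unmatched sites, and the shares within 10 kb were 25.6% and 17.1%. Neighbouring sites in 1 long peak of a library were more frequent among co-bound sites. They made up 6.53% of co-bound and 3.38% of unmatched GR sites, and 5.16% and 2.12% for SUMO-2/3. The part of such sites in the spacing was not tested. From an unmatched SUMO-2/3 site the nearest GR site was closer than the nearest other SUMO-2/3 site by the median, 43.0 against 56.9 kb, and within 100 kb, 74.3% against 64.4%, while the shares within 10 kb were 18.4% and 17.1%.

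**Figure D5:**
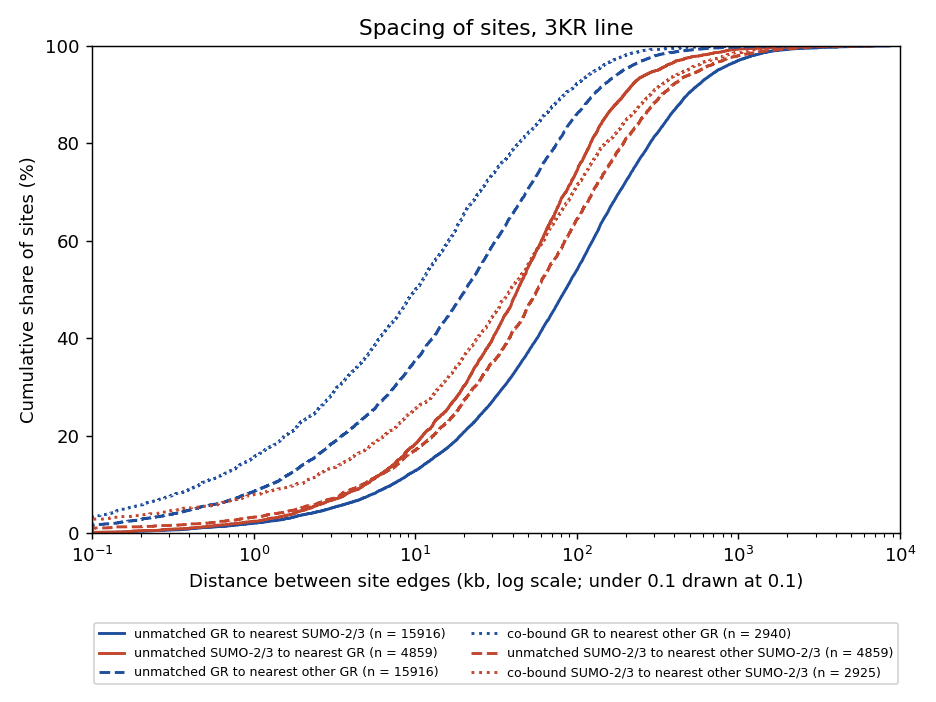
Cumulative share of sites (y axis, percent) by the distance between site edges (x axis, kb, log scale), from unmatched sites to the nearest site of the other antibody (solid), and to the nearest other site of the same antibody from unmatched (dashed) and co-bound (dotted) sites. Co-bound GR sites have the closest neighbours, with a median of 9.995 kb, and unmatched GR sites are farthest from SUMO-2/3, with a median of 85.0 kb.

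Along the chromosomes, sites of a kind followed each other. The site after an unmatched SUMO-2/3 site was again an unmatched SUMO-2/3 site in 34.7% of cases, while these make up 20.5% of all sites. After a co-bound site the next was co-bound in 18.8% of cases, against 12.4% of all sites. Neighbouring sites in 1 long peak of a library count separately here, and their part in these shares was not tested. The longest unbroken runs, singled out after their values were seen, show the 3 kinds of neighbourhood. At chr11:113984808-114050761, 10 co-bound GR sites stood within 0.066 Mb with no unmatched site of either antibody between them. Their GR tags ranged from 197 to 910 in library 1 and from 125 to 699 in library 2, and SUMO-2/3 tags from 71 to 341 and from 158 to 570. The control line had GR at 5 of the 10, against 11.8% of all co-bound GR sites. The last of them, chr11:114049592-114050761, had 802 and 699 GR tags and 341 and 570 SUMO-2/3 tags. Some sites of this run share a long GR peak of library 1. The sites starting at 114030393 and 114031522 both carry 562 tags, and those at 114033178 and 114034239 both 910. The SUMO-2/3 site at chr11:114034254-114034308 is 55 bp wide.

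A second co-bound run, of 8 GR sites, lay at chr16:72911006-73024802, and none of its sites had GR in the control line. Its strongest member, chr16:73023176-73024802, had 861 and 837 GR tags and 287 and 561 SUMO-2/3 tags, and its weakest by GR library 1, chr16:72961262-72962016, had 97 and 192 GR tags and 64 and 242 SUMO-2/3 tags. The third run packed 7 GR sites and 3 SUMO-2/3 sites into 0.012 Mb at chr6:35689429-35701430, and all 7 GR sites had GR in the control line. Its GR sites share peaks: the counts of 1756 and 1996 tags each stand at neighbouring sites that a single long peak covered. The GR site at chr6:35697084-35697089 is 6 bp wide.

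Unmatched GR sites ran for 35 sites over 13.15 Mb at chr13:74630942-87777529, with medians of 195 and 133 tags. On chromosome 6, 32 such sites stood at chr6:132270033-134302066, with medians of 244 and 235.5 tags. The 2 longest runs of SUMO-2/3 sites without GR were on chromosome 6 and closely spaced, with medians of 12.89 and 14.91 kb from start to start, against 32.92 kb in the GR run on that chromosome. At chr6:27519376-28057672, 25 of them stood within 0.538 Mb, with medians of 523 and 933 tags and maxima of 2135 and 3220. At chr6:26532655-27146774, 23 stood with medians of 457 and 844 tags. These are several times the medians of 102 and 198 tags over all unmatched SUMO-2/3 sites. No site of either run had GR in the control line. Only 2 of all 4859 unmatched SUMO-2/3 sites (0.0412%) had it, so its absence does not set these runs apart.

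Without any GR transgene, the control line showed GR at 347 of the 2940 co-bound GR sites (11.8%, 10.7 to 13.0), at 557 of the 15916 GR sites without SUMO-2/3 (3.50%, 3.22 to 3.80) and at 2 of the 4859 SUMO-2/3 sites without GR (0.0412%). Co-bound sites are the stronger GR sites, so the shares were also taken by quintile of GR fold. In the highest quintile they were 16.4% (14.7 to 18.2) for co-bound and 11.0% (9.63 to 12.4) for unmatched GR sites. In the next quintile they were 6.99% and 5.64%, with overlapping intervals, and in the lowest 2 quintiles the co-bound classes held 2 such sites each. With centres within 200 bp as the rule for the control line, the overall shares were 7.86% and 2.46%. The control list held only 1016 sites, which limits all these shares. Of these sites, 891 (87.7%) met a GR site of the 3KR line and 341 (33.6%) a co-bound one. These control values come from 1 library and have no replicate check.

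Co-bound sites with GR in the control line had more of both antibodies. The 321 one-to-one sites of this kind had median GR tags of 543 and 489 and SUMO-2/3 tags of 144 and 311 in libraries 1 and 2. The other 2489 had 359 and 316 GR tags and 106 and 213 SUMO-2/3 tags. By leaning class, the control line had GR at 12 of the 68 GR-leaning sites (17.6%, 9.47 to 28.8), at 299 of 2507 sites of neither class (11.9%, 10.7 to 13.3) and at 10 of 235 SUMO-2/3-leaning sites (4.26%, 2.06 to 7.69). Median GR tags moved in the same order across these classes, at 517 and 414.5, 390 and 339, and 205 and 212, and their part in the control-line shares was not tested.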

How the data were processed

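CASAVA, Bowtie 0.12.9 and hg19 are named in the submitters' processing notes. A peak caller is not given in the sources used here. The lists the authors deposited give, per the file headers, a start, end, length, summit and whole, unnormalized tag count for every peak, a fold enrichment (a ratio to background) and an FDR (false discovery rate, in percent). The deposited p column reaches a ceiling and was treated as a score and not used. All 53280 peaks of both antibodies had over 50 tags, a fold above 8 and a rate under 10 percent. Start and end were identical in both libraries of an antibody, so a site was read as the stretch common to both peaks, which no header states.

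Sites were matched by at least 1 bp. Tag counts at one-to-one sites were compared with edgeR 4.0.16 (R 4.3.3, TMM normalisation over these sites, quasi-likelihood test, Benjamini-Hochberg adjustment over all 2810), after a test on simulated data, and with DESeq2 1.42.0 as an alternative. Other steps used Python 3.11.15, pandas 2.3.3, numpy 2.4.6, scipy 1.17.1 and matplotlib 3.10.9. Medians and shares over sites are descriptions, since sites are not replicates. Sites named in the text are the first of the 10 best by mean fold rank in each class, and of the 10 with the smallest adjusted p to each side. Runs and multiple matches were chosen after their values were seen. The samples, classes and comparisons were chosen with earlier results of these data known. No hg19 genome or annotation was used, so planned motif counts and gene lists were not run. The input and IgG libraries were not analysed here. Library totals were not used, so depth is known as tags in listed peaks only: 4696781 and 4291083 for GR and 1127839 and 2343951 for SUMO-2/3.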

Additional observations from a re-analysis of the deposited data

Results flagged for a closer look

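The fold enrichment of co-bound against unmatched sites went opposite ways for the 2 antibodies in every library. The ratio of medians was 1.833 and 1.996 in GR libraries 1 and 2, and 0.9458 and 0.9191 in SUMO-2/3 libraries 1 and 2. All libraries of one antibody moved one way and all of the other the opposite way, and the difference was not tested. This held for fold only. By tags the SUMO-2/3 ratios were 1.088 and 1.131, above 1 like those of GR, at 2.169 and 2.155.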

How the results depend on the processing

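Of 95 alternatives over 17 results, 47 left the value within its set range and 48 moved it. The range was an interval or spread, except for counts of leaning sites, where it was a fixed factor around the main count. No ratio of fold turned under another match rule, without chromosome 6 or 19, or without either library, settings chosen after seeing the data. The shares of co-bound GR and SUMO-2/3 sites were 14.1% and 34.3% with 50% reciprocal overlap, 12% and 29.0% by centres within 200 bp, and 11.2% and 28.4% above the median fold. A gap of 500 bp gave 16.6% for GR. With the fold of a single library, without replicate 1 or 2, they were 11.9 to 12.6% and 28.9 to 30.2%. Without each library in turn, the summit median was 22.0 to 31.0 bp, the mean tag correlation 0.543 to 0.667 and the length ratio 1.11 to 1.16 over all sites and 0.938 to 0.986 at co-bound sites. The correlation was 0.393 per kb and 0.311 with fold, and the length ratio 1.09 by site width. Leaning sites numbered 514 with the length offset (183 to GR), 754 by DESeq2 (291 and 463), 136 with at least 100 tags (24 and 112) and 178 with reciprocal overlap (31 and 147). Without each library they numbered 240 to 573 (42 to 198 to GR, 194 to 375 to SUMO-2/3). At an unadjusted p of 0.05, edgeR gave 914. With the replicate number as a block there were 604 (204 and 400). Same-numbered libraries deviated together with a correlation of 0.268 over sites, but the labels state no shared culture or day for a number. Unmatched GR and SUMO-2/3 sites within 10 kb were 11.8% and 16.8% between centres, 11.8% and 17.3% with the 500 bp gap, and 5.46% and 8.11% above the median fold. Control-line shares were 10.1% and 3.21% with reciprocal overlap and 7.86% and 2.46% by centres. The minimum of 100 tags left 1577 sites to test and the reciprocal overlap 2667. The cause of the moved values was not tested. Leaving out a library cannot change the number of sites, because the list is common to both. Depth limits the tag test at the weakest sites, as every listed peak has over 50 tags and unlisted signal is not seen.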

Other observations

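The chromosomes differed in how the lists met. The share of GR sites with SUMO-2/3 was lowest on chromosome 13, at 9.71% (exact 95% interval 7.11 to 12.8) of 443 sites, and highest on chromosome 19, at 23.1% (18.2 to 28.5) of 273 sites, with 22.9% (19.4 to 26.8) on chromosome 16. Chromosome 13 had 4.82 GR sites for each SUMO-2/3 site and chromosome 16 had 1.41, while chromosome 19 was the only chromosome with fewer GR than SUMO-2/3 sites, at a ratio of 0.655. The share of SUMO-2/3 sites with GR was highest on chromosome 18, at 51.4% (43.8 to 58.9) of 181 sites, although the ratio of sites there, 2.93, was close to that of chromosome 3, at 2.89, where the share was 42.6% (37.8 to 47.6) of 408. Distances on chromosome 19 also had the reverse order of the whole list: unmatched SUMO-2/3 sites were a median of 77.5 kb from GR, and unmatched GR sites 47.4 kb from SUMO-2/3. The third-longest run of SUMO-2/3 sites without GR, with 21 sites, lay there at chr19:36247777-38028905. Its tags were high, with medians of 431 and 762 in libraries 1 and 2, but its folds were low, with medians of 9.43 and 12.73. The runs on chromosome 6 at chr6:27519376-28057672 and chr6:26532655-27146774 had median folds of 30.28 and 25.48 and of 23.88 and 26.23.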
